A study of Rattus norvegicus with 10 samples.

Results

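The loci described here are the microRNA genes of the rat, read on an array of whole transcripts in testes that differed in their development. A locus was taken where its probe set carried 1 gene symbol and that symbol was Mir with a number, or Mirlet7 with any suffix. Host transcripts named with the ending hg were left out by this rule, and the table held 0 of them. This gave 363 loci of the 18166 named genes tested, each with 1 probe set, and another 21 microRNA probe sets that carried several symbols stayed out. There were 3 groups, all of sexually mature Zucker rats aged 14 weeks: obese rats with under-developed testes (4 arrays, called under-developed below), obese rats whose testes had developed normally (4 arrays, normal obese) and lean rats whose testes had developed normally (2 arrays, normal lean). Every sample is labelled with the Zucker fa/fa model, in which the leptin receptor is mutated and obesity is inherited, and this label stands on the lean samples too, so the genotype of the lean rats was not settled. Each array took 15 µg of biotin-labelled antisense RNA made from total testis RNA. The titles speak of biological replicates without saying whether 1 animal gave 1 testis, and p-values below therefore cover only the spread among these arrays.

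A microRNA begins as a hairpin within a longer primary transcript made from its own promoter, from the intron of a host gene, or together with neighbouring hairpins as a cluster. Drosha with its partner Dgcr8 cuts the hairpin out in the nucleus, Xpo5 exports it, Dicer1 cuts off its loop, and an Argonaute protein keeps one strand, whose seed (bases 2 to 8 from the 5′ end) pairs with messenger RNAs to lower their translation and stability. In the testis, loss of Dicer1 from germ cells or Sertoli cells impairs sperm production in mice. An X-linked cluster of the miR-506 family is known to be active in germ cells and Sertoli cells of rodents, and miR-34 and miR-449 are known to be abundant in meiotic and later germ cells. A probe set at a microRNA gene can read the primary transcript, the hairpin or, in part, the host transcript, and the mature RNA was not measured apart from these. A higher value is therefore a higher signal at the locus.

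Of the 363 loci, 344 had a mature sequence in the RefSeq table used here (GRCr8 assembly), with 590 arms in all. The sequences below belong to the loci with the largest differences and to loci that share their seed. Bases are 5′ to 3′ and capitals mark the seed. The locus with the largest difference, Mir505, is followed by the gene read from the opposite strand of the same hairpin, Mir3589. Next stand pairs that share a seed but lie at different loci, Mir204 with Mir211, Mir27b with Mir27a and Mir99a with Mir99b. The X-linked cluster follows, in which Mir743a and Mir871 share a seed, and the last are Mir186, miR-30c, which 2 loci encode, and the shared seed of Mir34c and Mir449c.
rno-miR-505-3p: gUCAACACuugcugguuucc
rno-miR-3589: gAGGAAACcagcaaguguugac
rno-miR-204-5p: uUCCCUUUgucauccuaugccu
rno-miR-211-5p: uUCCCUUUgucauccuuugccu
rno-miR-27b-3p: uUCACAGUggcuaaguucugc
rno-miR-27a-3p: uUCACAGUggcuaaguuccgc
rno-miR-99a-3p: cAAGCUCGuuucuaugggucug
rno-miR-99b-3p: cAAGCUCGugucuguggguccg
rno-miR-743a-5p: uAUUCAGAuuggugccugucau
rno-miR-871-5p: uAUUCAGAuuggugccggucacau
rno-miR-743b-5p: uGUUCAGAcugguguccaucau
rno-miR-465-5p: uAUUUAGAacggugcuggugug
rno-miR-881-3p: uAACUGUGgcauuucugaauag
rno-miR-878: gCAUGACAccauacuggguaga
rno-miR-186-5p: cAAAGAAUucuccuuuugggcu
rno-miR-30c-5p: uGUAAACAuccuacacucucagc
rno-miR-34c-5p: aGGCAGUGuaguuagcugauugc
rno-miR-449c-5p: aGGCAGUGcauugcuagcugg

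Over all loci with a sequence, 68 seeds were shared by 147 loci. Hairpin sequences were found for 330 loci and measured 61 to 120 bases (median 87.5). In 14 pairs, made of 22 loci, the hairpins held the same run of 25 bases, the length of an array probe, so that their probe sets may read each other's transcripts.

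The arrays of the under-developed group were unlike each other. Over all genes, under-developed arrays 1, 2 and 3 correlated with the 6 normal arrays at a mean r of 0.856, 0.946 and 0.731, while array 4 did so at 0.995, the level of the normal arrays among themselves. Array medians lay between 6.26 and 6.38 log2 in the under-developed group, against 6.14 to 6.21 in normal obese testes and 6.23 to 6.24 in normal lean testes. Spermatid markers differed from the normal obese mean by −2.76, −0.71, −4.28 and −0.05 log2 in under-developed arrays 1 to 4 (8 of 9 fell without array 4), and macrophage markers by 2.58, 1.56, 2.49 and −0.08 (8 of 8 rose). Sertoli markers differed by 1.46, 1.11, 1.64 and −0.01 (7 of 9 rose and 1 fell), and markers of myoid and smooth muscle cells by 1.58, 1.18, 2.03 and −0.18 (5 of 5 rose). These cell type markers differed in arrays 1 to 3, on which the calls below rest, and their part in those results was not tested. In array 4 the means of these 4 marker lists lay between −0.18 and −0.01. In bulk tissue, fewer cells of a type and less RNA per cell cannot be told apart. Values below are RMA expression values on the log2 scale, where a difference of 1.0 is 2-fold, and differences of single arrays are taken against the normal obese mean, in the order of under-developed arrays 1 to 4.

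Most microRNA loci gave a low signal. The mean over all arrays ran from 2.65 to 8.23 log2 among the 363 loci (median 4.76), and 277 loci (76.3%) lay in the dimmest 25% of all genes, below 5.70. Only 21 lay above the median of all genes. The median SD between arrays of a group was 0.25 log2 in under-developed testes, 0.14 in normal obese testes and 0.10 in normal lean testes.

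The series asks, by its title, what differs between testes that under-developed and testes that developed normally in obese rats. With all arrays, limma called 0 of the 363 loci at an adjusted p under 0.05, and 0.0% of all genes. The smallest limma adjusted p among the loci was 0.0702. At an unadjusted p under 0.05, limma gave 84 loci (23.1%), 72 higher and 12 lower in under-developed testes, against 46.6% of all genes (24.4% higher and 22.3% lower). With array weights, an alternative that gives less weight to arrays unlike their group, limma called 80 loci (22.0%), 65 higher and 15 lower (17.9% and 4.13%), against 54.3% of all genes, 28.4% higher and 25.9% lower.

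Without under-developed array 4, limma called 101 loci, of which 84 rose and 17 fell. Among all genes the same fit called 56.0%, with 29.6% higher and 26.4% lower, while among the loci it called 27.8%, with 23.1% higher and 4.68% lower. The share of loci that rose was thus below the background, and the share that fell was further below it. Within the dimmest 25% of genes, 20.9% of the loci rose against 14.2% of the genes, and 3.25% fell against 4.38%. Outside it, 30.2% of 86 loci rose against 34.8% of the genes, and 9.3% fell against 33.7%. Leaving out each array was planned, but array 4 was singled out after its values were known, so these calls are not independent of its likeness to normal testes. Below, "rose" and "fell" stand for a limma adjusted p under 0.05 without array 4, and the fit of all 10 arrays is given beside it for the loci the results turn on.

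**Figure D1:**
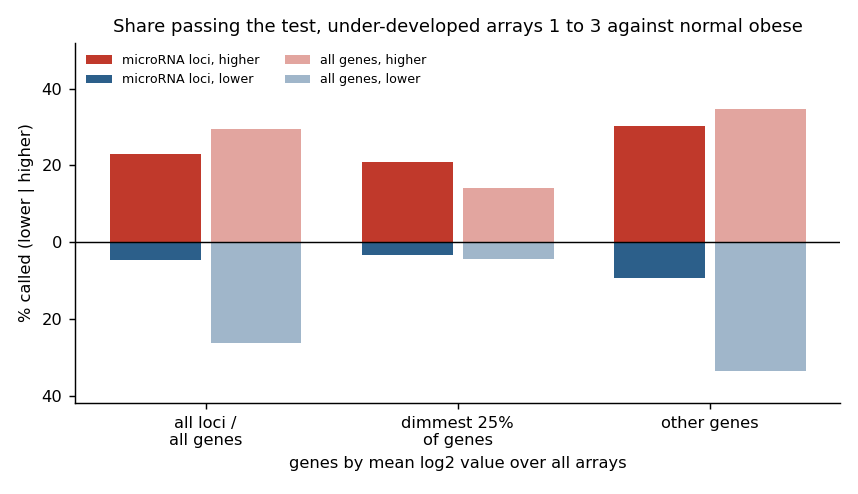
Percent of microRNA loci (full colour) and of all genes (pale) called higher (above 0) or lower (below 0) in under-developed arrays 1 to 3 than in normal obese testes, limma adjusted p under 0.05, for all genes, the dimmest 25% and the other genes. Among all genes 29.6% were higher and 26.4% lower, and among the loci 23.1% and 4.68%.

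The split between higher and lower loci depended on how arrays were scaled. Centring each array on its median moved every difference between under-developed and normal obese testes by −0.12 log2, or by −0.14 without array 4. Centring on cytosolic ribosomal protein genes moved them by −0.53, or by −0.76 without array 4, and 28 of the 34 measured ribosomal protein genes were themselves higher in the values as deposited. Without array 4, 83.2% of the called loci were higher as deposited. With median centring 54 loci were higher and 33 lower (62.1% of the called loci higher), beside 24.5% of all genes higher and 31.8% lower. With ribosomal protein centring 11 were higher and 270 lower, beside 11.9% and 70.7% of all genes. The 11 loci higher under all of these scalings were Mir505, Mir871, Mir743b, Mir99a, Mir465, Mir3580, Mir204, Mir881, Mir186, Mir27b and Mir878. Of these, 6 belong to the X-linked cluster. Both centrings moved differences downward, so the differences of the 17 loci that fell as deposited had to stay below 0.

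Loci were also counted in single arrays. In under-developed arrays 1, 2 and 3, 23, 8 and 31 loci were at least 2-fold above the normal obese mean (6.34%, 2.2% and 8.54%), where 15.5%, 7.56% and 19.2% of all genes were. In each of these arrays 1 locus was at least 2-fold below it (15.6%, 6.18% and 16.8% of all genes), Mir30d in arrays 1 and 2 and Mirlet7f-1os in array 3. In array 4 the 2-fold higher loci were Mir872 and Mirlet7c1, 2 of 7 such genes (0.0385% of all genes), and 0 loci were 2-fold lower (0.0055% of all genes). Arrays 1 to 3 all lay above all 6 normal arrays for 72 loci (19.8%, against 28.7% of all genes) and below them for 19 loci (5.23%, against 26.7%). All 4 under-developed arrays lay above the 4 normal obese arrays for 48 loci (13.2%, against 7.44% of all genes) and below them for 4 (1.1%, against 10.4%). Array by array, under-developed arrays 1 to 4 lay above all 6 normal arrays for 144, 117, 187 and 104 loci, which is 39.7%, 32.2%, 51.5% and 28.7%, against 40.7%, 34.2%, 49.5% and 17.8% of all genes. They lay below all 6 for 55, 56, 38 and 31 loci, which is 15.2%, 15.4%, 10.5% and 8.54%, against 37.8%, 38.3%, 32.0% and 18.6% of all genes. In each of the 4 arrays the share of loci below the normal arrays was thus under that of all genes. The array medians given above, which were higher in all 4 under-developed arrays than in any normal array, move with these counts. The counts were set against all genes and not against genes of like signal, though 76.3% of the loci had a mean below 5.70 log2. In arrays 1 to 4 the median difference was 0.05, 0.03, 0.16 and 0.08 log2 over all genes this dim. It was 0.03, −0.02, 0.17 and −0.005 over all genes, and 0.11, 0.10, 0.28 and 0.10 over the loci. Whether the counts of the loci differ from those of dim genes was not tested.

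**Figure D2:**
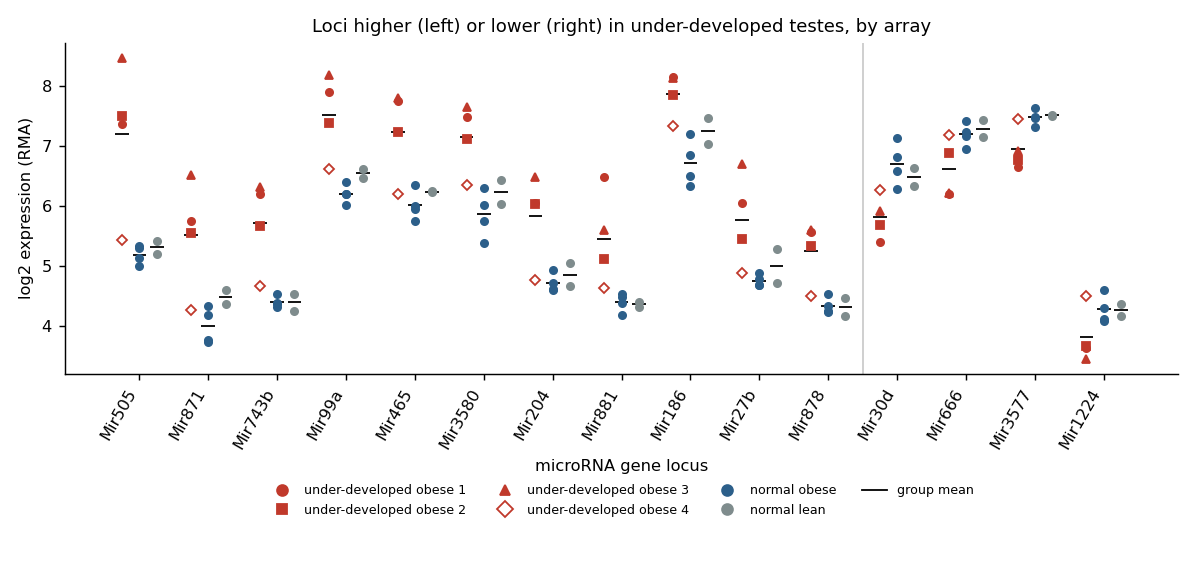
RMA log2 values of single arrays for the 11 loci higher under all scalings (left of the grey line) and the 4 loci with the largest falls (right), with under-developed, normal obese and normal lean arrays side by side and a line at each group mean. Under-developed array 4 (open diamond) lies near the normal arrays, while Mir505 reaches 8.47 in array 3.

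Mir505, an X-linked locus, showed the largest difference of all 363. It stood at 7.37, 7.49, 8.47 and 5.44 log2 in under-developed arrays 1 to 4, against 5.31, 5.0, 5.14 and 5.33 in normal obese testes and 5.43 and 5.21 in normal lean testes. Arrays 1 to 3 lay far above every normal array, and array 4 lay just above the highest of them. With all arrays the difference was 2.00 ± 0.53 log2 (SE, limma adjusted p = 0.0702), and without array 4 it was 2.58 ± 0.25 (limma adjusted p = 0.000103). Mir3589 lies on the opposite strand of the same hairpin. It differed by −0.23, −0.11, −0.07 and −0.01 in the 4 arrays and did not pass (−0.14 ± 0.09 without array 4, limma adjusted p = 0.238).

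Over the 10 arrays, the genes whose values followed Mir505 most closely were Zkscan8 and Herc6 (Pearson r = 0.997 each), Ogt (0.995), Acad8 (0.995) and Clk1 (0.994). Ogt, which adds O-linked N-acetylglucosamine to proteins, differed by 2.11, 1.99, 2.93 and 0.17 in under-developed arrays 1 to 4. Among the microRNA loci the closest were Mir204 (r = 0.987), Mir190 (0.978), Mir743b, Mir99a and Mir871. These correlations are across 10 arrays of 3 groups, and 3499 genes followed Mir505 at r over 0.9, so this closeness is shared by many genes that separate arrays 1 to 3 from the rest.

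The X-linked testis cluster was the set of loci with the largest mean difference. Its loci lie on the minus strand of the X chromosome in the order Mir743a, Mir743b, Mir742 and Mir883, then Mir471, Mir741, Mir463, Mir880, Mir878, Mir881, Mir871, Mir3580 and Mir465, with Mir201 and Mir547 apart. Of 17 listed loci 15 were measured, and Mir509 and Mir883b were not analysed here. The mean over the 15 loci was 1.29, 0.70, 0.98 and 0.17 log2 above that of normal obese testes in under-developed arrays 1 to 4, where the means of the single normal obese arrays had an SD of 0.06. In the 2 normal lean arrays it was 0.15 and 0.05 above, so array 4 stood near 1 of the lean arrays. Of the 15, 12 rose and 0 fell in limma without array 4. In the same fit 41.4% of the X-linked genes rose and 18.5% fell, and 29.6% and 26.4% of all genes. The mean fitted difference of 0.79 log2 over all arrays became 0.67 with median centring and 0.26 with ribosomal protein centring, and stayed above 0 in each.

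Mir871 had the largest change of the cluster. It stood at 5.75, 5.55, 6.51 and 4.27 log2 in under-developed testes, against 3.77, 3.74, 4.34 and 4.19 in normal obese and 4.61 and 4.37 in normal lean testes. Arrays 1 to 3 lay above all normal arrays, and array 4 lay among them. The difference was 1.51 ± 0.41 over all arrays (SE, limma adjusted p = 0.0702) and 1.93 ± 0.25 without array 4 (limma adjusted p = 0.000319). Mir743a, which shares the seed of miR-871-5p, stood at 6.47, 5.88, 6.57 and 5.29 in under-developed testes, against 5.37, 5.32, 5.28 and 5.14 in normal obese and 5.91 and 5.41 in normal lean testes. Array 2 of the under-developed group fell short of 1 lean array, so these groups overlapped. Mir743b, whose seed differs, stood at 6.21, 5.67, 6.32 and 4.67, against 4.38, 4.38, 4.33 and 4.53 in normal obese and 4.26 and 4.54 in normal lean testes, and all 4 under-developed arrays lay above all normal arrays.

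Mir465 gave 7.74, 7.23, 7.79 and 6.19 log2 in under-developed arrays, against 6.36, 5.76, 6.0 and 5.94 in normal obese and 6.24 and 6.23 in normal lean testes. Mir3580, its neighbour, gave 7.49, 7.12, 7.64 and 6.35, against 5.76, 5.39, 6.31 and 6.02 in normal obese and 6.44 and 6.04 in normal lean testes. In both, arrays 1 to 3 lay above all normal arrays, with differences without array 4 of 1.57 ± 0.18 (limma adjusted p = 0.00019) for Mir465 and 1.55 ± 0.23 (limma adjusted p = 0.000609) for Mir3580. Mir881 followed another order of arrays. It gave 6.49, 5.12, 5.59 and 4.63, against 4.53, 4.20, 4.49 and 4.39 in normal obese and 4.41 and 4.32 in normal lean testes, so array 1 stood highest. The same held for Mir883 (differences of 1.85, 0.52, 0.67 and 0.43), Mir741 (1.67, 0.55, 0.85 and 0.30) and Mir742 (1.71, 0.62, 0.37 and −0.06). In Mir871, Mir743b, Mir743a, Mir3580, Mir465 and Mir878, array 3 was the highest, as it was for Mir505.

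Mir880, Mir201 and Mir547 did not pass, with differences of 0.27 ± 0.20, 0.11 ± 0.11 and 0.24 ± 0.15 log2 without array 4. Mir201 and Mir547 lie outside the runs of the other loci. The hairpins of the cluster are related but not the same, with 46.3% to 74.0% identity over 91 pairs of 14 hairpins (median 56.8%), highest between Mir743b and Mir871. Of the protein-coding genes that flank the cluster, Fmr1, whose product binds messenger RNAs, rose by 1.03, 0.73, 1.37 and 0.18 log2 in arrays 1 to 4 (limma adjusted p = 0.000515 without array 4). Slitrk2 differed by −0.09, −0.10, 0.20 and 0.03 and Ell2l1 by −1.12, −0.66, −5.45 and −0.18, and neither passed. These flanking genes were chosen by their position.

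**Figure D3:**
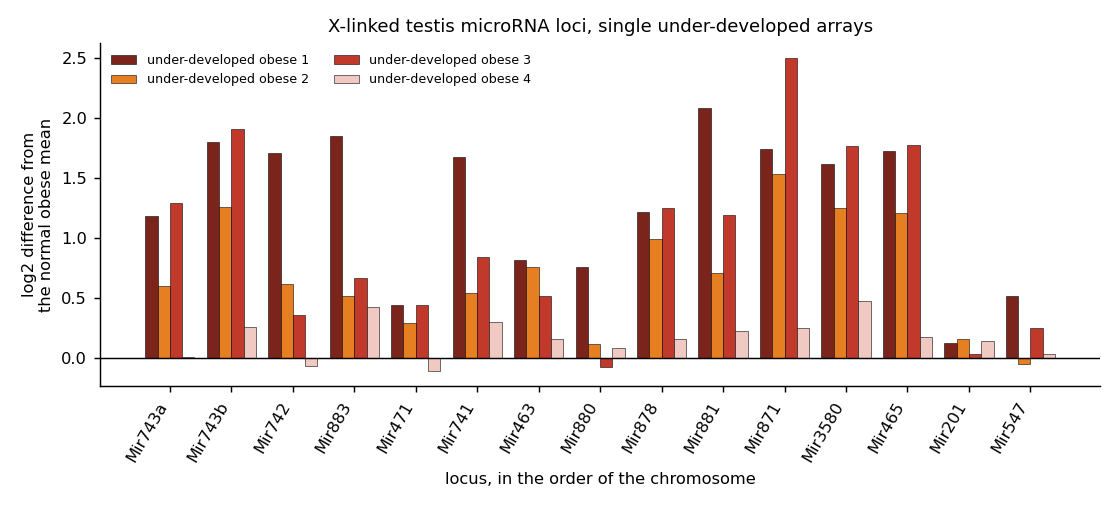
Log2 difference of each under-developed array from the normal obese mean for the 15 loci of the X-linked testis cluster, in chromosome order, with arrays 1 to 4 side by side. The highest bar is Mir871 in array 3 at 2.50, array 1 leads at Mir881 and Mir883, and array 4 lies between −0.10 and 0.48.

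Over the whole X chromosome, 20 of 56 microRNA loci rose (35.7%, against 41.4% of the X-linked genes) and 1 fell (1.79%, against 18.5%). Outside the testis cluster, 8 of 41 X-linked loci rose and 1 fell, both smaller shares than the 41.4% and 18.5% of the X-linked genes. Mir505 and Mir542 were among those that rose (Mir542 by 0.67 ± 0.16, limma adjusted p = 0.00595). On the autosomes 64 of 307 rose and 16 fell, both smaller shares than the 29.6% and 26.4% of all genes.

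Mir99a was the autosomal locus with the largest rise. Its family, miR-99 and miR-100, is known to act on mTOR. Mir99a stood at 7.90, 7.38, 8.18 and 6.62 log2 in under-developed testes, against 6.40, 6.03, 6.20 and 6.21 in normal obese and 6.62 and 6.47 in normal lean testes. Array 4 lay above the normal obese arrays but level with the higher lean array. The difference was 1.31 ± 0.30 over all arrays (SE, limma adjusted p = 0.0702) and 1.61 ± 0.18 without array 4 (limma adjusted p = 0.000184). Mir99b, which shares the seed of its 3p arm, differed by −0.08, −0.04, 0.50 and 0.03, and Mir100 by 0.18, 0.50, 0.85 and 0.03, and neither passed. Mir125b2, which lies near Mir99a, rose evenly by 0.45, 0.39, 0.42 and 0.41 in the 4 arrays (0.42 ± 0.10 both with and without array 4, limma adjusted p = 0.0702 and 0.00644), and its sign turned to −0.11 with ribosomal protein centring. Mir125b1, at another locus, differed by 0.01, 0.12, −0.04 and −0.23. Mir125a differed by 0.04, 0.21, 0.24 and −0.13 and did not pass. The mean of these 6 loci, Mir125a included, differed by 0.38, 0.39, 0.66 and 0.09, and the fitted mean of 0.38 became −0.15 with ribosomal protein centring.

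Mir204, which lies within the cation channel gene Trpm3, stood at 6.05, 6.04, 6.49 and 4.77 log2 in under-developed testes, against 4.60, 4.62, 4.73 and 4.93 in normal obese and 5.06 and 4.67 in normal lean testes. Arrays 1 to 3 lay about 1 log2 above the highest normal array, and array 4 lay within the normal range. The difference was 1.12 ± 0.33 over all arrays (SE, limma adjusted p = 0.0702) and 1.47 ± 0.16 without array 4 (limma adjusted p = 0.000146). Trpm3 itself differed by 0.65, 0.87, 1.34 and 0.19 and rose. Mir211, whose 5p arm has the same seed and which lies in the related gene Trpm1, differed by 0.47, 0.02, 0.33 and 0.66 and did not pass, and here array 4 was the highest.

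Mir186 lies within Zranb2, which encodes a splicing factor. It stood at 8.15, 7.84, 8.13 and 7.33 log2 in under-developed testes, against 6.50, 6.34, 7.20 and 6.85 in normal obese and 7.03 and 7.47 in normal lean testes. All 4 under-developed arrays lay above the normal obese arrays, and array 4 lay below 1 of the lean arrays. The difference was 1.14 ± 0.24 over all arrays (SE, limma adjusted p = 0.0702) and 1.32 ± 0.22 without array 4 (limma adjusted p = 0.001). Zranb2 differed by 0.70, 0.55, 1.00 and 0.04. By unadjusted p over all arrays, Mir7-1 came before it, with 7.04, 6.81, 7.15 and 6.85 log2 in under-developed testes, against 6.35, 6.34, 6.53 and 6.44 in normal obese and 6.59 and 6.34 in normal lean testes. That difference, 0.55 ± 0.12 (SE, limma adjusted p = 0.0702), included array 4, as did that of Mir129-2 (0.48, 0.40, 0.48 and 0.39). Both loci are among the 48 in which all 4 under-developed arrays lay above the normal obese arrays.

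The cluster of Mir23b, Mir27b and Mir24-1 rose, while its near copy, Mir23a, Mir27a and Mir24-2, did not pass. miR-27 is known to hold back fat cell differentiation. Mir27b stood at 6.06, 5.46, 6.70 and 4.88 log2 in under-developed testes, against 4.68, 4.89, 4.69 and 4.78 in normal obese and 4.71 and 5.28 in normal lean testes. Arrays 1 to 3 lay above all normal arrays, with a difference of 1.31 ± 0.27 without array 4 (SE, limma adjusted p = 0.00301). Mir23b (0.62 ± 0.14, limma adjusted p = 0.00458) and Mir24-1 (0.72 ± 0.19, limma adjusted p = 0.0101) rose beside it. Mir24-1 also stood lower in normal obese than in normal lean testes, as given below. Mir3074, on the opposite strand of Mir24-1, differed by −0.25, 0.19, 0.45 and −0.02. Mir27a, with the same seed as Mir27b, differed by 0.01, −0.01, −0.10 and −0.59, and Mir24-2, which encodes the same mature miR-24, by −0.16, −0.21, 0.17 and 0.03. The mean fitted difference of the Mir23b cluster, 0.58 log2, became 0.05 with ribosomal protein centring, and −0.06 when array 4 was also left out.

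Mir145 and Mir143 both rose. Mir145, which with Mir143 marks smooth muscle, stood at 4.59, 4.14, 4.92 and 3.65 log2 in under-developed testes, against 3.74, 3.17, 3.40 and 3.75 in normal obese and 3.48 and 3.70 in normal lean testes. Mir143 stood at 7.57, 7.58, 8.51 and 7.13, against 7.28, 7.08, 7.07 and 7.09 in normal obese and 7.07 and 6.99 in normal lean testes. In both, arrays 1 to 3 lay above all normal arrays and array 3 was highest, with differences without array 4 of 1.03 ± 0.21 (limma adjusted p = 0.00304) for Mir145 and 0.76 ± 0.22 (limma adjusted p = 0.0158) for Mir143. The mean of the pair differed by 0.76, 0.54, 1.39 and 0.07, and its fitted value of 0.69 was 0.16 with ribosomal protein centring.

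The Mir199a and Mir214 group, known from mesenchymal cells, differed on average by 0.24, 0.30, 1.02 and 0.17 log2, with the largest part in array 3. Mir199a2 rose (0.78 ± 0.17 without array 4, limma adjusted p = 0.00472) and lay above all normal arrays in arrays 1 to 4. Mir214 stood at 6.85, 6.93, 7.91 and 7.02 in under-developed testes, against 6.86, 6.68, 7.01 and 6.92 in normal obese and 6.92 and 6.97 in normal lean testes, so it was high in array 3 and level with normal testes elsewhere, and it did not pass. The fitted mean of the group, 0.43, became −0.10 with ribosomal protein centring. The miR-29 family, known to repress collagen genes, differed by 0.50, 0.37, 0.61 and 0.40 on average, also in array 4. Its mean in the 2 normal lean arrays was 0.47 and 0.23 above the same normal obese mean, so under-developed arrays 2 and 4 lay between the lean values. Mir29c, Mir29b2 and Mir29a rose (0.84 ± 0.19, 0.55 ± 0.18 and 0.40 ± 0.10 without array 4, limma adjusted p = 0.00555, 0.0251 and 0.00934), and Mir29b1 did not (0.17 ± 0.12). The fitted mean of the miR-29 family, 0.47, became −0.06 with ribosomal protein centring.

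The miR-30 family moved both ways. Mir30d was the locus with the largest fall and the only one called that fell by 2-fold or more. It stood at 5.40, 5.69, 5.92 and 6.27 log2 in under-developed testes, against 6.29, 7.13, 6.82 and 6.58 in normal obese and 6.64 and 6.34 in normal lean testes. All 4 under-developed arrays lay below every normal array, array 4 by a narrow margin. The difference was −0.89 ± 0.23 over all arrays (SE, limma adjusted p = 0.0702) and −1.04 ± 0.21 without array 4 (limma adjusted p = 0.00296). Mir30c2 stood at 5.68, 5.15, 5.27 and 4.19, against 4.74, 3.94, 4.12 and 4.02 in normal obese and 4.53 and 4.01 in normal lean testes, and rose (1.16 ± 0.23 without array 4, limma adjusted p = 0.00264), with arrays 1 to 3 above all normal arrays. Mir30c1, which encodes the same mature miR-30c-5p, differed by 0.32, −0.20, 0.63 and 0.06 and did not pass. Mir30e rose (0.56 ± 0.19, limma adjusted p = 0.0343), and Mir30a and Mir30b did not pass.

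Over the 10 arrays, the genes that followed Mir30d most closely were Trmt12 (r = 0.943), Ccdc25 (0.942), Il20ra and Lonrf1 (0.940 each) and Enpp4 (0.936). Among the microRNA loci these were Mir3570 (r = 0.888) and Mir383 (0.870). Only 37 genes followed it at r over 0.9.

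The other falls were small. Mir666 differed by −0.99, −0.30, −0.97 and −0.01 log2 (−0.75 ± 0.19 without array 4, limma adjusted p = 0.00919). Mir3577 stood at 6.65, 6.76, 6.92 and 7.44 in under-developed testes, against 7.64, 7.48, 7.32 and 7.46 in normal obese and 7.51 and 7.52 in normal lean testes, and Mir1224 at 3.65, 3.68, 3.46 and 4.50, against 4.30, 4.61, 4.13 and 4.09 in normal obese and 4.16 and 4.38 in normal lean testes. In these loci arrays 1 to 3 lay below all normal arrays, while array 4 lay within their range. The differences without array 4 were −0.70 ± 0.11 for Mir3577 and −0.69 ± 0.14 for Mir1224 (limma adjusted p = 0.000834 and 0.00348). Others that fell were Mir3548 (−0.59), Mir383 (−0.49), Mir19b2 (−0.49), Mir3547 (−0.47), Mir130b (−0.39) and Mir130a (−0.27). Only Mir130a, Mir30d, Mir3570 and Mir3596a lay below the normal obese arrays in all 4 under-developed arrays.

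Of the 4 measured loci of the miR-34b/c and miR-449 clusters, known from meiotic and later germ cells, 1 fell, where 26.4% of all genes fell. Mir34b differed by 0.07, 0.15, 0.11 and 0.03 log2 and Mir34c by 0.09, 0.12, 0.07 and 0.18, and neither passed. Mir449c, with the seed of Mir34c, stood at 5.07, 5.29, 5.08 and 6.04 in under-developed testes, against 5.36, 5.53, 6.02 and 6.04 in normal obese and 6.18 and 6.23 in normal lean testes. Arrays 1 to 3 lay below all normal arrays, and array 4 was level with the higher normal obese arrays. It fell by 0.59 ± 0.18 without array 4 (limma adjusted p = 0.0206), while Mir449a did not pass (−0.37 ± 0.15, limma adjusted p = 0.0703). The fitted mean of the pair of Mir449 loci was −0.27. The spermatid markers differed by −2.76, −0.71, −4.28 and −0.05 in under-developed arrays 1 to 4, and the spermatocyte markers by −2.49, −0.66, −4.39 and 0.0002. In the Mir200 family, known from epithelial cells, Mir200b fell by 0.50 ± 0.11 (limma adjusted p = 0.0042), and Mir200a, Mir200c, Mir141 and Mir429 did not pass.

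The let-7 loci, whose RNA builds up as cells differentiate, differed by 0.29, 0.09, 0.14 and 0.33 log2 on average over 12 loci. The mean was highest in array 4, but the medians, 0.12, 0.10, 0.32 and 0.25, were highest in array 3. Mirlet7f-1os differed by 0.05, −0.99, −1.78 and 0.22 and did not pass. It is among the 11 of these loci with the seed of the let-7 5p arms. Mirlet7f-1, on the opposite strand, lacks that seed but counts among the 12. Mirlet7a-2 (0.69 ± 0.10, limma adjusted p = 0.000651), Mirlet7i (0.45 ± 0.12, limma adjusted p = 0.0108) and Mirlet7f2 (0.43 ± 0.16, limma adjusted p = 0.0422) rose without array 4, and 0 fell. The fitted mean of 0.21 became −0.31 with ribosomal protein centring. Mirlet7c1 stood at 5.44, 5.69, 4.84 and 6.04 in under-developed testes, against 4.90, 4.98, 5.17 and 4.86 in normal obese and 5.20 and 5.69 in normal lean testes. It was thus low in array 3 and highest in array 4. Mir181d was higher in all 4 arrays, by 0.35, 0.66, 0.85 and 0.46, and rose (0.62 ± 0.17 without array 4, limma adjusted p = 0.0113), and Mir181b2 rose too, but the fitted mean of the 6 miR-181 loci was 0.12 and was 0 to 2 decimals with median centring.

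The largest group was a list, fixed by name, of 41 loci of the imprinted Dlk1-Dio3 cluster of chromosome 6, expressed from the maternal allele. The list does not hold every measured locus of this region. Mir1193, for example, lies between Mir136 and Mir134 and rose, but is not counted here. The mean of the 41 loci differed by 0.12, 0.07, 0.30 and 0.10 log2 in under-developed arrays 1 to 4. Of the 41, 32 had a fitted difference above 0, as did 275 of all 363 loci. Mir380, Mir539, Mir493, Mir377, Mir299, Mir541 and Mir379 rose (by 0.29 to 0.59 without array 4), and Mir382 fell by 0.35. Among all genes 29.6% rose and 26.4% fell. Mir299, Mir380 and Mir539 gave a low signal, with normal obese means of 2.81, 3.20 and 3.22. Its fitted mean of 0.15 was 0.03 with median centring and −0.38 with ribosomal protein centring. In the growth-related cluster of Mir17 to Mir92a1 0 of 6 loci passed, with a mean of 0.01, 0.01, 0.21 and 0.05. Of its relatives, the cluster of Mir106b, Mir93 and Mir25 gave 1 locus that rose (Mir93), and in that of Mir106a to Mir363 Mir92a2 rose and Mir19b2 fell. Mir182, Mir132 and Mir542 were the loci that rose in their clusters (0.41, 0.54 and 0.67). In the Mir290 to Mir295 cluster, known from embryonic stem cells, 1 of 6 loci rose (Mir290, 0.43 ± 0.11, limma adjusted p = 0.00906). In the muscle loci Mir1, Mir133 and Mir206, the red blood cell loci Mir144 and Mir451, and Mir221 and Mir222, 0 passed.

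**Figure D4:**
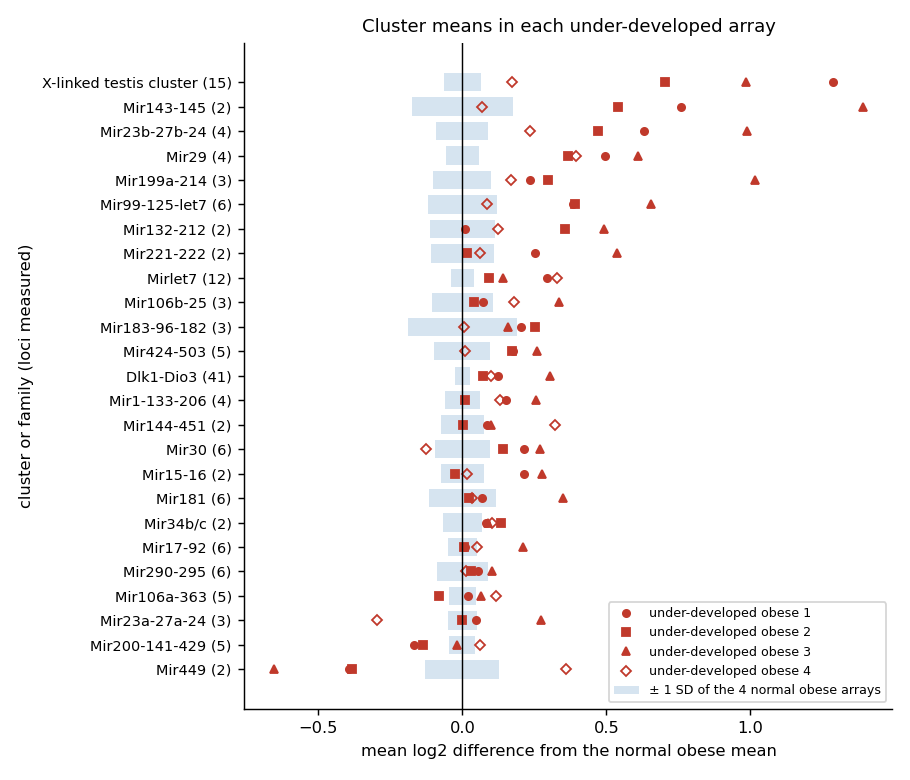
Mean log2 difference of each under-developed array from the normal obese mean over the loci of each fixed cluster or family, with the number of loci in brackets and a blue band of ± 1 SD of the 4 normal obese array means. The X-linked testis cluster leads with 1.29, 0.70 and 0.98 in arrays 1 to 3, Mir449 lies lowest, and array 4 (open diamond) lies close to 0 for most. With ribosomal protein centring the fitted means of all but the X-linked, Mir143 with Mir145, and Mir23b clusters are below 0.

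Some loci are listed for what they are known to mark. Mir511, which lies in the mannose receptor gene Mrc1 of macrophages, stood at 6.22, 5.70, 6.39 and 5.76 log2 in under-developed testes, against 5.17, 4.93, 5.32 and 5.35 in normal obese and 5.69 and 5.37 in normal lean testes. All 4 under-developed arrays lay above every normal array, array 2 by a narrow margin. It rose by 0.91 ± 0.19 without array 4 (limma adjusted p = 0.00314), and Mrc1 by 1.44, 0.63, 1.21 and −0.04 in the 4 arrays. Mir210, induced by low oxygen, rose by 0.42 ± 0.10 (limma adjusted p = 0.00584). Mir22, Mir203, Mir107 and Mir140 rose too, Mir140 with a limma adjusted p = 0.0499. The myeloid and blood cell loci Mir223 and Mir142 and the inflammation-induced Mir146a, Mir146b and Mir21 did not pass. The same held for the endothelial Mir126b in Egfl7, Mir126a opposite to it, the cholesterol-linked Mir33 in Srebf2 and the liver locus Mir122. The islet locus Mir375, the gonadal Mir202, and Mir150, Mir34a, Mir184, Mir152, Mir103a1 and Mir483 did not pass either. Mir126a, which encodes miR-126b while Mir126b encodes miR-126a, was high in array 3 alone, with differences of −0.06, 0.01, 1.05 and 0.16. Mir155, Mir335 and Mir675 were not analysed here.

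A host gene on the same strand was measured for 94 loci. Without array 4, 31 of these 94 loci lay in hosts that rose (33.0%, against 29.6% of all genes) and 26 in hosts that fell (27.7%, against 26.4%). Of the 94 loci themselves 20 rose (21.3%) and 4 fell (4.26%), close to the 23.1% and 4.68% of all loci. Both rose for 9 and both fell for 2. Besides Mir204, Mir186 and Mir511, the shared rises included Mir3582 in Mib1, a ubiquitin ligase of Notch signalling (1.23, 0.98, 1.22 and 0.04 for the locus, 1.07, 0.80, 1.64 and 0.09 for the host). Mir218-2 rose by 0.54 and its host Slit3, a secreted guidance protein, by 2.06 without array 4. For 4 loci the host fell while the locus rose. Mir93 differed by 0.33, 0.09, 0.60 and 0.23, and its host Mcm7, a subunit of the replicative helicase, by −1.88, −1.16, −2.52 and −0.15. The others were Mir128-1 in R3hdm1, Mir350 in Cep170 and Mir140 in Wwp2. With ribosomal protein centring the fitted differences of Mir93 and Mir140 over all arrays turned to −0.21 each. Both loci also stood lower in normal obese than in normal lean testes, as given below. Mir200b fell by 0.50 where its host Ttll10 fell by 3.05. In 22 cases the host rose and in 20 it fell while the locus did not pass.

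The cluster of Mir23b, Mir27b and Mir24-1 lies in Aopep, an aminopeptidase gene, which differed by −0.69, −0.55, 0.02 and 0.09 and did not pass. Across the 94 pairs, the differences of locus and host had Pearson r = 0.287, 0.321, 0.252 and 0.165 in under-developed arrays 1 to 4. These values are across loci on the same array, and some loci share a host.

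**Figure D5:**
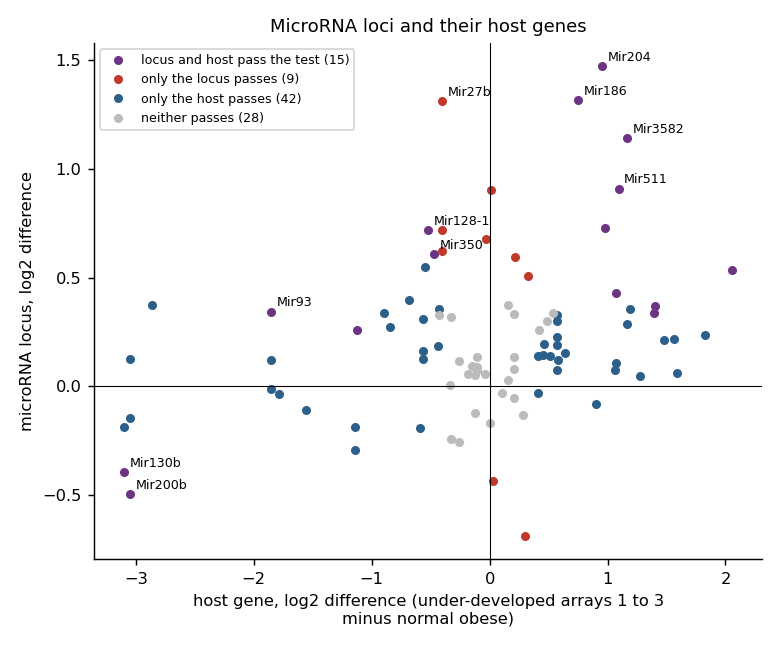
Log2 difference without array 4 (under-developed arrays 1 to 3 minus normal obese) of 94 microRNA loci (vertical) against their host genes (horizontal), coloured by which passed the limma test. Hosts spread over a wider range than loci, Mir204 and Mir186 lie at upper right, Mir93 at upper left and Mir200b at lower left.

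Some loci lie on opposite strands of 1 hairpin. Of 41 such pairs, both loci passed in 1 (Mir29c and Mir3556b, both higher), 1 locus passed in 19, and neither passed in 21. The differences of the paired loci had r = −0.029, −0.128, 0.011 and −0.124 in under-developed arrays 1 to 4, as a description over 41 pairs. Mir3582 differed by 1.23, 0.98, 1.22 and 0.04 and its partner Mir133a1 by 0.08, −0.26, 0.62 and 0.07. Mirlet7a-2 differed by 0.60, 0.82, 0.64 and 0.12, and Mir3596a opposite to it by −0.41, −0.17, −0.17 and −0.15.

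Genes that make and use microRNAs were listed beside the loci. Of 29 listed genes 25 were measured, and without array 4 14 rose and 5 fell (56.0% of all genes were called in this fit). Among the first steps, Drosha differed by −0.52, −0.75, −0.27 and 0.05 log2 and fell (−0.51 ± 0.14, limma adjusted p = 0.0112), as did the export factor Xpo5 (−0.57 ± 0.11, limma adjusted p = 0.00215) and its cofactor Ran, while Dgcr8 did not pass. Dicer1 differed by 0.82, 0.26, 1.03 and −0.04 and rose (0.70 ± 0.17, limma adjusted p = 0.00763). Prkra, a Dicer1 partner, had the largest difference, 2.46, 1.84, 2.92 and −0.03 (2.41 ± 0.22, limma adjusted p = 9.12e-05), and the other partner, Tarbp2, did not pass. Among silencing factors, Ago1, Ago3, Tnrc6a and Mov10 rose (by 0.89, 0.70, 1.04 and 0.89), and Ago4 and Tnrc6b did not pass.

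Among genes that trim or destroy these RNAs, the deadenylase Parn (1.52 ± 0.19) and the nuclease subunits Tsnax (1.59 ± 0.15) and Tsn (0.50 ± 0.10) rose. Lin28b, which blocks let-7 maturation, and Dis3l2, the nuclease that destroys let-7 precursors, fell (−0.34 ± 0.09 and −0.58 ± 0.12, limma adjusted p = 0.00878 and 0.00384), while Tut4 and Tut7, which tag those precursors, rose. Array 4 stayed within 0.29 log2 of the normal obese mean for all 25 genes except Ran (−0.42).

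The second comparison set normally developed testes of obese rats against those of lean rats. limma called 0 of the 363 loci and 0.0% of all genes, and the smallest limma adjusted p among the loci was 1.000 when rounded. At an unadjusted p under 0.05 there were 7 loci (1.93%), all lower in obese testes, against 0.44% of all genes (0.121% higher and 0.319% lower). Mir24-1 stood at 4.90, 4.37, 4.69 and 5.14 log2 in normal obese testes, against 5.69 and 5.25 in normal lean testes (−0.70 ± 0.21), and Mir29c at 5.23, 4.96, 5.33 and 5.20, against 5.78 and 5.96 (−0.69 ± 0.23). All obese arrays lay below both lean arrays in these loci. The others were Mir9-2 (−0.49 ± 0.19), Mir298 (−0.40 ± 0.15), Mir342 (−0.38 ± 0.16), Mir93 (−0.37 ± 0.15) and Mir140 (−0.36 ± 0.13).

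Over all loci, the 4 obese arrays lay below both lean arrays for 54 loci (14.9%, against 7.27% of all genes) and above them for 5 (1.38%, against 7.7%). The median difference of the loci was −0.06 log2, against 0.01 over all genes and −0.03 in the dimmest 25%, and it was 0 to 2 decimals with median centring. Array medians of the lean testes were above those of the obese normal testes, and they moved with these counts. The X-linked testis cluster differed by −0.10 log2 and the miR-29 family by −0.35 on average, the Mir23b cluster by −0.25. Mir872 stood at 5.29, 4.98, 5.53 and 5.55 in normal obese testes, against 6.35 and 5.87 in normal lean testes (−0.77 ± 0.35), and at 5.33, 5.11, 5.50 and 6.43 in under-developed testes, where array 4 alone reached the lean level. Loci that were higher in obese testes by fitted value were Mir98 (0.39), Mir292 (0.38) and Mir344a-2 (0.35), and none of these passed. Mir29c and Mir24-1, with means of 5.95 and 5.49 in under-developed testes, were thus level with the lean means of 5.87 and 5.47.

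A further comparison set the under-developed testes beside the normal lean testes. limma called 0 of 363 loci and 0.0% of all genes with all arrays (smallest adjusted p among the loci 0.154), and 40 loci (11.0%) had an unadjusted p under 0.05, against 31.8% of all genes (17.5% higher and 14.3% lower). Of these loci 27 were higher and 13 lower. Without under-developed array 4, 67 were called (18.5%, against 48.8% of all genes), 48 higher and 19 lower, beside 25.6% and 23.2% of all genes. With array weights 68 were called (18.7%, against 53.0% of all genes). The largest rises were Mir505 (2.46 ± 0.30, limma adjusted p = 0.000412) and Mir743b (1.67 ± 0.20, limma adjusted p = 0.000378). The largest fall by fitted value was Mir449c (−1.06 ± 0.21 without array 4, limma adjusted p = 0.00398), whose under-developed arrays 1 to 3 lay about 1 log2 below both lean arrays. Mir30d fell by 0.82 ± 0.25 (limma adjusted p = 0.0246). This comparison shares the under-developed arrays with the first, and the comparison of obese with lean normal testes shares the normal obese arrays with the first.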

How the data were processed

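The deposited series matrix holds RMA log2 values, per the submitters' processing notes, for 36685 probe sets on 10 arrays. RMA's version and settings are not given in the sources used here, and the number of arrays limits the precision. RMA corrects background, equalises array distributions and summarises probes, so a broad one-way shift may be partly removed. GEO's platform annotation gave 1 symbol for 18511 probe sets, several for 575 and none for 17599. Symbols were updated through RefSeq gene identifiers (18394 matched), and where several probe sets shared a symbol the brightest on average was kept, leaving 18166 genes.

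Differences were fitted with limma 3.58.1 in R 4.3.3 (a mean per group over all arrays, empirical Bayes, two-sided), with Benjamini-Hochberg adjustment over all genes and a threshold of 0.05. The fit was run on simulated data with 200 changed genes, using the spread of the normal obese arrays in every group. The median SD over all genes was 0.10 log2 in normal obese and 0.36 in under-developed testes. The simulation thus did not cover the spread of the under-developed arrays. Tables were handled with Python 3.11.15, pandas 2.3.3 and numpy 2.4.6, and sequences came from RefSeq (GRCr8), which was used for names, hosts (a gene over the locus on the same strand) and neighbours (under 10 kb). The files' own build was not needed. Neighbours formed 53 runs with 185 loci.

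Loci and lists were chosen with earlier results of these data known. The rule named, per comparison, the 10 largest rises and falls and the 5 smallest p-values, up to 4 loci per cluster by size of difference, a fixed set of single loci, measured hosts, and listed processing genes. Other loci, named as partners by seed, strand or position or for under-developed array 4, were chosen after their values were seen.

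Alternatives were array median centring, renewed quantile normalization, ribosomal protein centring, an offset of 50, filters on dim genes, other uses of probe sets, trended robust moderation, array weights, a fit of 2 groups, a replicate block and leaving out each array.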

Additional observations from a re-analysis of the deposited data

Results flagged for a closer look

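In 320 groups of 4 arrays (named loci and cluster means), an array stood apart from the other 3 in 17 by Dixon's ratio, the gap to the nearest other array over the whole range, set against its critical value for 4 values. Chance alone gives about 1 in 20.

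In under-developed testes, array 3 was high for Mir214 (ratio 0.839), Mir291b (0.882, at 5.97 log2 against 5.32 to 5.40 in the others), Mir29c (0.882), the mean of the Mir199a and Mir214 group (0.849) and the mean of the miR-181 family (0.860). Against the other 3, array 4 was high for Mir383 (0.832) and Mir98 (0.899) and low for Mir29a (0.853). At Mir383 and Mir29a array 4 was near the normal obese mean (differences of 0.04 and 0.03). There arrays 1 to 3 were the ones that differed from it, by −0.50, −0.54 and −0.44 for Mir383 and by 0.39, 0.37 and 0.43 for Mir29a. Array 2 was high for Mir298 (0.918) and array 1 for Mir29b1 (0.876).

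In normal obese testes, array 1 was high for Mir125b1 (0.8291, at 3.41 against 2.83 to 2.93), Mir143 (0.885) and Mir181c (0.864) and low for Mir351 (0.877). Array 2 was low for the means of Mir106b, Mir93 and Mir25 (0.882) and of the Mir199a and Mir214 group (0.856), and array 3 was low for Mir9-2 (0.848).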

How the results depend on the processing

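For under-developed against normal obese testes, limma called 0 loci with all arrays, 80 with array weights (9862 of 18166 genes), and 0 to 101 when 1 array was left out, 101 without under-developed array 4 and 0 without any other. For under-developed against normal lean testes these counts were 0, 68 (9620 genes) and 0 to 67, 67 without under-developed array 4. For normal obese against normal lean testes the count was 0 under every setting run. Same-numbered arrays of under-developed and normal obese testes had deviations correlated at 0.08, 0.01, 0.02 and 0.26, and those of normal obese and normal lean testes at 0.14 and −0.06, so the numbers were not taken to pair samples. With the replicate number as a block, 0 loci were called in each comparison, and 75, 38 and 11 had an unadjusted p under 0.05 (under-developed against normal obese, under-developed against normal lean, normal obese against normal lean). In 2 alternatives chosen after seeing the data, under-developed array 4 was left out of centred values. Median centring then called 87 loci against normal obese and 60 against normal lean testes (10240 and 9009 genes), and ribosomal protein centring 281 and 296 (15003 and 14877 genes).

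The median difference of the loci between under-developed and normal obese testes was 0.14 log2. It was 0.021 with median centring and with quantile normalization, −0.38 with ribosomal protein centring and 0.046 with the offset, and leaving out 1 array gave 0.10 to 0.16. Without array 4 it was 0.027 with median and −0.59 with ribosomal protein centring. Between normal obese and normal lean testes it was −0.06, and −0.0024 with median centring, −0.011 with quantile normalization, −0.16 with ribosomal protein centring, −0.013 with the offset, and −0.096 and −0.081 with genes under the 25th percentile or the median left out. Without under-developed array 4 the centred values were again −0.0024 and −0.16.

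In under-developed arrays 1 to 4 the median difference of the loci was 0.11, 0.10, 0.28 and 0.10. With median centring it was 0.024, −0.0092, 0.072 and 0.024, with quantile normalization 0.0070, −0.0037, 0.057 and 0.0083, with ribosomal protein centring −0.80, −0.39, −0.59 and 0.27, and with the offset 0.032, 0.026, 0.073 and 0.026. With the filter at the 25th percentile it was 0.021 in array 1 and 0.40 in array 3, and with the filter at the median −0.015 in array 1, 0.40 in array 3 and 0.17 in array 4.

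Ribosomal protein centring turned the sign of these differences with an unadjusted p under 0.05. Against normal obese testes they became −0.11 for Mir125b2, −0.0899 for Mir129-2, −0.21 for Mir140, −0.18 for Mir182, −0.13 for Mir203, −0.15 for Mir210, −0.0246 for Mir23b, −0.19 for Mir290, −0.22 for Mir29a, −0.12 for Mir539, −0.0438 for Mir542, −0.21 for Mir93 and −0.0887 for Mirlet7i. Against normal lean testes they became −0.0157 for Mir463, −0.13 for Mir7-1 and −0.0937 for Mirlet7i. The centring moves all differences of a comparison by 1 amount. The cause of the other changes was not tested. Among the named loci, 140 values passed the threshold under array weights or without array 4 and not with all arrays. Signs of differences with an unadjusted p of 0.05 or more turned in 59 cases with ribosomal protein centring, 19 each with median centring and quantile normalization, and 12 with array weights. The low signal of most loci and the 2 lean arrays limit what can be told apart.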
